A study of Mus musculus with 16 samples.

Results

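The comparison set β-cat cOEs, in which β-catenin cannot be degraded normally and APC is intact, against APC/β-cat cKOs, in which both proteins are removed. Its members were chosen by genotype label alone, 4 libraries of each line, which makes 8 of the 16 libraries of the study. Each library is polyA RNA from freshly dissected mouse prefrontal cortex (PFC), and the other 8 libraries are 4 APC cKOs and 4 controls. The study asked whether altered social and repetitive behaviour goes with elevated β-catenin or with loss of APC, and this pair of lines differs in both.

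All of the mutant mice carry the same forebrain recombinase, CamKIIα-Cre-93. The β-cat cOEs are ctnnb1 fl(ex3)/+, so that Cre removes exon 3 from 1 of the alleles of Ctnnb1. In the APC/β-cat cKOs, which are APC fl/fl and ctnnb1 fl/fl, Cre removes Ctnnb1 between exon 2 and exon 6 and Apc at exons 11 and 12. The APC cKOs are APC fl/fl, and the controls are Cre-negative littermates taken from every line and pooled. Mice of both sexes were 2 to 3 months old. Cre acts mostly in excitatory neurons, so interneurons, glia and vessel cells of the same tissue keep their alleles. In bulk tissue, fewer cells of a type and less RNA per cell cannot be told apart.

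β-catenin has 2 known roles in neurons. At the synapse it ties cadherins to the actin cytoskeleton, and in the nucleus it joins TCF/LEF factors to switch on Wnt target genes such as Axin2. APC is a scaffold of the destruction complex, which phosphorylates β-catenin at its amino-terminal end and so marks it for breakdown. The residues that are phosphorylated lie in exon 3, which is why its removal stabilizes the protein. That exon is shown here because its loss defines the β-cat cOEs. In Ctnnb1-201 it is exon 3 of 15, 228 bases long, on the plus strand of GRCm38 at chr9:120950522-120950749, and it touches codons 5 to 81. Capitals mark the codons of residues 33, 37, 41 and 45, the first, second and last of which are serine and the third threonine.
Ctnnb1 exon 3: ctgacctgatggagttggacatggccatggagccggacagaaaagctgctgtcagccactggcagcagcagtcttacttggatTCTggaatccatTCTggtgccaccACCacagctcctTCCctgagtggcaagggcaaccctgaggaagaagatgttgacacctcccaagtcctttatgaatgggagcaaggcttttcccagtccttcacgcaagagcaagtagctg

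Levels are given in FPKM, fragments per kilobase of transcript, scaled to a fixed number of mapped fragments, which allows genes to be compared per length. Differences are on the scale of log2(FPKM + 0.1) and are β-cat cOE minus APC/β-cat cKO, so a positive value means a higher level in the β-cat cOEs. A gene was called when limma, fitted over 13978 genes and all 16 libraries, gave a Benjamini-Hochberg adjusted p under 0.05. Nothing in the labels says which libraries share a litter, so p-values measure the spread between these libraries. Fragment counts were not analysed here and depth is unknown. Of the 23284 genes in the table, 5832 to 6217 were at 0 in a β-cat cOE library and 5959 to 6649 in an APC/β-cat cKO library. All 8 libraries of the pair were from males by Xist and Y-linked genes, whereas control replicate 1 and APC cKO replicate 1 were from females. Markers of excitatory neurons were high in every library, with Camk2a at 590 to 718 FPKM and Slc17a7 at 435 to 532 FPKM over the 8. The summed level of 9 olfactory nucleus and bulb markers ran from 37.5 to 236 FPKM within the β-cat cOEs and from 28.6 to 175 FPKM within the APC/β-cat cKOs. That of 16 striatal projection neuron markers ran from 171 to 447 FPKM and from 195 to 593 FPKM. These levels varied several-fold within both lines, and their part in the results was not tested.

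Apc followed the labels in every library. Its level was 48.1, 49.5, 41.7 and 38.8 FPKM in β-cat cOE replicates 1 to 4 and 10.5, 12.2, 10.6 and 6.80 FPKM in the APC/β-cat cKOs. The lines did not come near each other, and the controls (40.8 to 50.1 FPKM) lay with the β-cat cOEs while the APC cKOs (7.85 to 17.1 FPKM) lay with the APC/β-cat cKOs. The difference was 2.16 on the log2 scale (SE 0.20, n = 4 and 4, adjusted p = 4.00e-05 by limma), and the exact two-sided permutation test gave p = 0.0286, the smallest that 4 against 4 libraries allow. Whole-gene values do not separate transcripts of cells that Cre does not reach from transcripts that lack only the deleted exons.

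Ctnnb1 did not separate the lines. The β-cat cOE libraries held 166, 159, 155 and 159 FPKM and the APC/β-cat cKO libraries 155, 156, 151 and 157 FPKM, so the groups overlapped. The difference was 0.05 (95% interval -0.05 to 0.14, adjusted p = 0.708 by limma, exact two-sided permutation p = 0.0857). Both lines lose exons, not the promoter, and a whole-gene value does not show which exons are read. The Ctnnb1 alleles therefore were not checked by its level.

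Between the lines, 32 genes were called, 0.229% of those tested. Of these, 17 were higher in the β-cat cOEs (0.122% of tested genes) and 15 lower (0.107%). At an unadjusted p under 0.05 there were 1665 genes (11.9%), with 704 higher (5.04%) and 961 lower (6.88%). In each of the 32 called genes the 4 β-cat cOE values lay wholly outside the 4 APC/β-cat cKO values, as they did in 6.3% of all genes tested. The median difference over all tested genes was -0.0012. Large changes were mostly on the higher side: 13 called genes changed by at least 2-fold, 11 of them higher in the β-cat cOEs, and 14 changed by less than 1.5-fold, 11 of them lower. The 11 higher genes include Apc itself and other genes of the 2 targeted chromosomes. On these chromosomes every called gene was higher, 6 on chromosome 9 (Ctnnb1) and 3 on chromosome 18 (Apc).

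**Figure D1:**
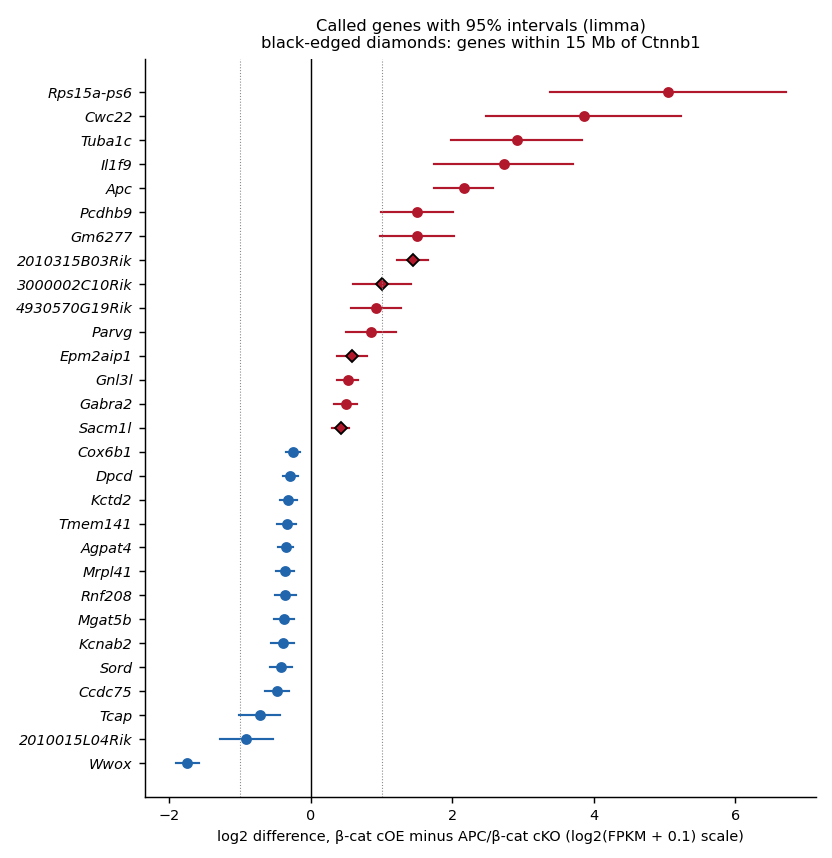
Log2 difference (β-cat cOE minus APC/β-cat cKO, log2(FPKM + 0.1) scale) of 29 of the 32 called genes, with limma's 95% interval as a line and n = 4 libraries per line; red is higher and blue lower in the β-cat cOEs, black edges mark genes within 15 Mb of Ctnnb1, and dotted lines mark 2-fold. Wwox at -1.75 is the lowest point, most of the other lower genes lie near -0.4, and Rps15a-ps6 at 5.05 is the highest. H2-T9, with a level near 0 in every β-cat cOE library, is among the genes not drawn.

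Wwox, which encodes a WW-domain oxidoreductase, had the smallest p. It held 9.37, 10.2, 10.4 and 9.10 FPKM in the β-cat cOEs and 33.6, 32.1, 31.2 and 34.98 FPKM in the APC/β-cat cKOs. The controls (10.3 to 11.7 FPKM) and APC cKOs (8.82 to 11.1 FPKM) lay with the β-cat cOEs, so the 4 APC/β-cat cKO libraries stood alone among the 16. The difference was -1.75 (SE 0.08, adjusted p = 2.79e-09 by limma), a level 3.36-fold higher in the APC/β-cat cKOs. Wwox spans 114439635 to 115352712 on chromosome 8 (mm10), a chromosome that carries neither targeted gene. It was called under each of the 31 alternatives tried.

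Agpat4 was the only called gene in which each line of the pair stood outside the other 12 libraries. Its product is an acyltransferase that makes phosphatidic acid, a precursor of membrane lipids. The level was 21.9, 24.9, 24.5 and 22.3 FPKM in the β-cat cOEs, 29.04, 31.3, 29.5 and 30.1 FPKM in the APC/β-cat cKOs, and 26.8 to 28.8 FPKM in the 8 control and APC cKO libraries. The β-cat cOEs were thus the lowest and the APC/β-cat cKOs the highest of the series. The difference was -0.36 (SE 0.05, adjusted p = 0.0045 by limma).

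In 16 of the 32 called genes, all 4 APC/β-cat cKO libraries lay outside the other 12 libraries, 8 of them below and 8 above. The β-cat cOEs lay outside the other 12 in 2 called genes, Agpat4 and Dpcd, both below. Over all tested genes the shares were 0.551% and 0.143%, but the called genes were picked by the distance between these lines, so their counts are a description. Against the controls, which both contrasts share, the unadjusted p of 30 of the 32 was under 0.05 in the APC/β-cat cKOs (14.2% of all tested genes) and that of 7 in the β-cat cOEs (5.07%). Dpcd, a gene linked to motile cilia, was at 34.4, 32.96, 34.4 and 34.9 FPKM in the β-cat cOEs and at 40.2, 43.9, 38.2 and 44.8 FPKM in the APC/β-cat cKOs, with controls at 35.9 to 38.7 FPKM.

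Gabra2 was the called gene with the most direct synaptic role. It encodes the α2 subunit of the GABA-A receptor, found at inhibitory synapses on pyramidal neurons. The β-cat cOEs held 72.4, 74.7, 67.2 and 71.3 FPKM and the APC/β-cat cKOs 48.4, 52.3, 45.8 and 56.9 FPKM. The APC/β-cat cKOs were lower than every other library, since the controls ran from 58.2 to 73.5 FPKM and the APC cKOs from 62.1 to 70.9 FPKM. The difference was 0.49 (SE 0.08, adjusted p = 0.0143 by limma). The strain background of each line is not given in the sources used here, so in Gabra2 and every other called gene except Apc a difference of strain and one of the targeted alleles cannot be told apart.

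Gnl3l, a nucleolar GTPase gene on the X chromosome, showed the same order. Its β-cat cOE values were 82.4, 88.8, 84.7 and 79.6 FPKM and its APC/β-cat cKO values 66.4, 52.4, 62.2 and 53.7 FPKM. The difference was 0.52 (SE 0.07, adjusted p = 0.00259 by limma), and the 8 control and APC cKO libraries (73.9 to 83.3 FPKM) lay with the β-cat cOEs.

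**Figure D2:**
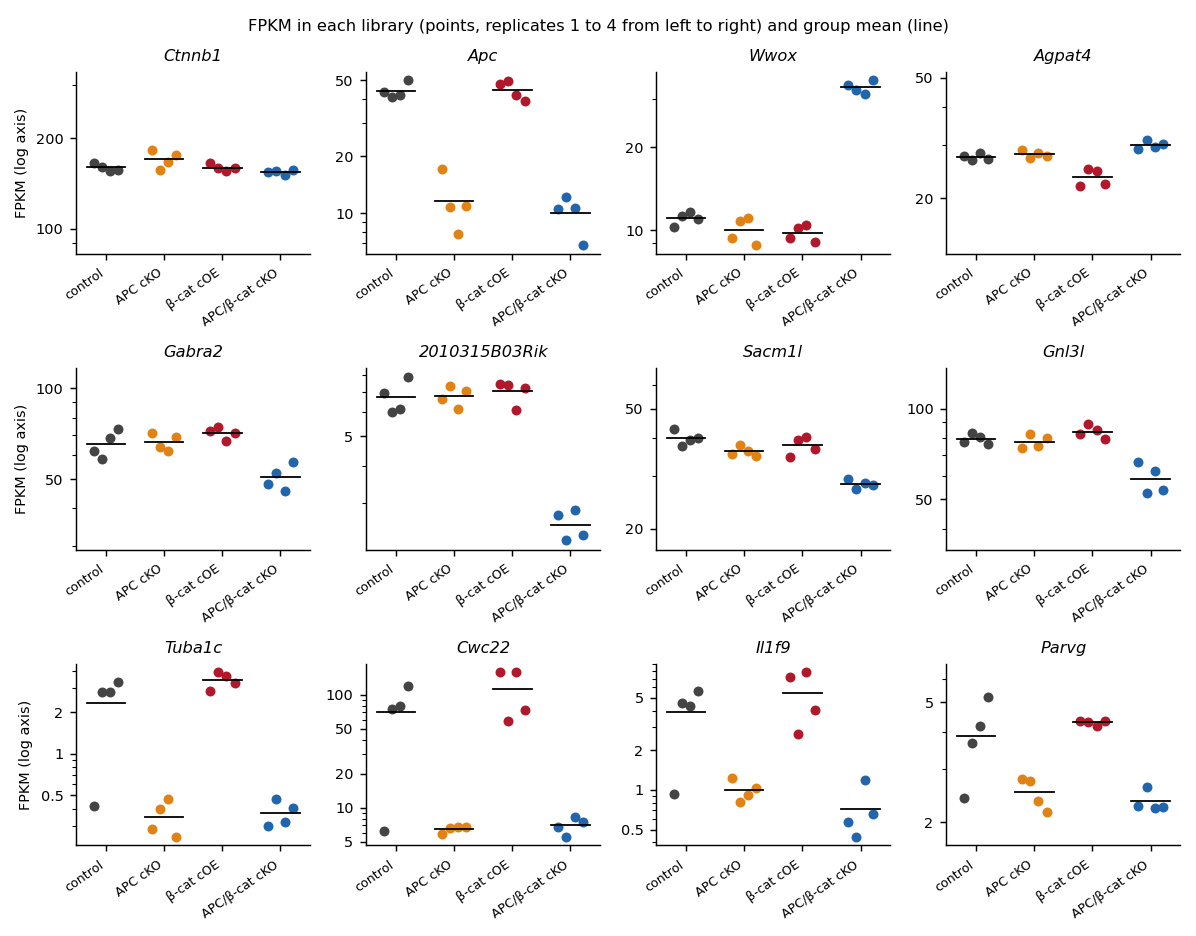
FPKM on a log axis in each of the 16 libraries (points, replicates 1 to 4 from left to right within a genotype) with the mean of each genotype as a line, for Ctnnb1 and 11 called genes. In Wwox, Gabra2, 2010315B03Rik, Sacm1l and Gnl3l the 4 APC/β-cat cKO points stand apart from the other 12, while in Tuba1c, Cwc22, Il1f9 and Parvg the APC cKOs and control replicate 1 lie at or near the APC/β-cat cKO level.

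Close to Ctnnb1 lay 6 called genes, all higher in the β-cat cOEs. Within 15 Mb of its start on chromosome 9, 204 genes were tested and 6 were called, or 2.94% against 0.229% of all tested genes. These were also the only calls among the 805 tested genes of that chromosome. At an unadjusted p under 0.05 there were 48 of the 204 (23.5%, against 11.9%), 27 higher and 21 lower, so the genes short of the threshold pointed both ways. The β-cat cOEs carry 1 floxed chromosome here and the APC/β-cat cKOs 2, from different alleles, so a difference carried by the flanking chromosome and one made by the deletion cannot be told apart.

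The gene 2010315B03Rik sits 3.36 Mb beyond Ctnnb1. It held 7.46, 7.40, 6.13 and 7.25 FPKM in the β-cat cOEs and 2.74, 2.26, 2.85 and 2.35 FPKM in the APC/β-cat cKOs. It was low in the APC/β-cat cKOs alone, with a difference of 1.44 (SE 0.10, adjusted p = 2.51e-06 by limma). Sacm1l, which encodes a phosphatase of the lipid PI4P, lies between it and Ctnnb1 and was at 34.7 to 40.4 FPKM in the β-cat cOEs and 27.2 to 29.3 FPKM in the APC/β-cat cKOs, a difference of 0.42 (SE 0.06, adjusted p = 0.00259 by limma). In both genes no range in the other genotypes reached down to that of the APC/β-cat cKOs.

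On the other side of Ctnnb1, 9.66 Mb before it, lies Epm2aip1, which encodes a partner of laforin, the glycogen phosphatase. It was at 34.3, 40.3, 35.7 and 32.7 FPKM in the β-cat cOEs and 28.2, 21.1, 27.6 and 19.4 FPKM in the APC/β-cat cKOs. The APC/β-cat cKOs held the 4 lowest values of the series, and the difference was 0.59 (SE 0.10, adjusted p = 0.0229 by limma). It was called under 23 of the 31 alternatives.

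The pseudogene 3000002C10Rik, 11.1 Mb before Ctnnb1, was at 2.16, 1.74, 1.48 and 2.24 FPKM in the β-cat cOEs and 0.601, 1.31, 1.05 and 0.723 FPKM in the APC/β-cat cKOs, and its call (adjusted p = 0.0418 by limma) held under 13 of 30 alternatives. Among uncalled neighbours, Vill, a villin-like actin-binding gene 1.88 Mb before Ctnnb1, had the opposite sign at 0.184, 0.039, 1.03 and 0.131 FPKM in the β-cat cOEs and 1.89, 1.66, 2.24 and 2.15 FPKM in the APC/β-cat cKOs (adjusted p = 0.068). Its groups did not overlap, and the controls, at 0.755 to 1.30 FPKM, lay below every APC/β-cat cKO library and above all β-cat cOE libraries but replicate 3, which was within their range. The APC cKOs, at 0.835, 0.0455, 0.189 and 0.285 FPKM, lay within the range of the β-cat cOEs.

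**Figure D3:**
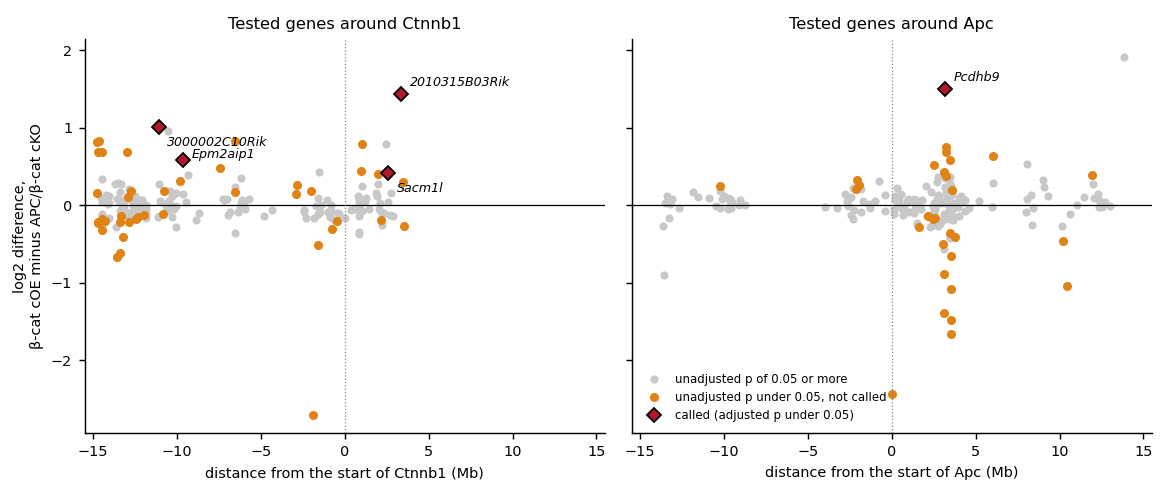
Log2 difference (β-cat cOE minus APC/β-cat cKO) of tested genes against their distance in Mb from the start of Ctnnb1 (left) or Apc (right), the targeted gene itself left out; grey points have an unadjusted p of 0.05 or more, orange points a lower one, and diamonds are called. The called genes drawn around Ctnnb1 are all above 0, while around Apc differences of both signs cluster between 3 and 4 Mb, where the protocadherin genes lie, and the low point beside Apc is the pseudogene Gm10548 at -2.44.

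Around Apc on chromosome 18 most of the large differences fell on 1 gene family. Within 15 Mb, 196 genes were tested, 30 (15.3%, against 11.9% of all tested genes) had an unadjusted p under 0.05 and 1, Pcdhb9, was called (0.229% of all tested genes were). The share under 0.05 was thus near that of all tested genes. The clustered protocadherins are cell adhesion genes arranged in tandem 3 Mb past Apc, of which each neuron uses a few. Of 55 tested, 7 were higher and 8 lower at an unadjusted p under 0.05, against 5.04% and 6.88% of all tested genes. The members are alike in sequence, so fragments may have been assigned between neighbours. Pcdhb9 was at 9.11, 9.42, 5.71 and 8.15 FPKM in the β-cat cOEs and 3.13, 2.53, 3.27 and 2.21 FPKM in the APC/β-cat cKOs (difference 1.5, SE 0.24, adjusted p = 0.0143 by limma). Pcdhga11, which was not called, had the opposite sign, at 1.90, 1.93, 3.98 and 1.44 FPKM against 7.70, 6.67, 7.23 and 6.49 FPKM (difference -1.66, SE 0.38, adjusted p = 0.101). The APC cKOs held the level of the APC/β-cat cKOs or near it in both genes, at 2.57 to 4.57 FPKM in Pcdhb9 and 5.52 to 7.46 FPKM in Pcdhga11. The controls spread over both levels: in Pcdhga11 replicate 1 was at 6.89 FPKM, replicates 2 and 3 at 1.39 and 1.97 FPKM and replicate 4 at 4.504 FPKM. Gm10548, a pseudogene whose gene model (34207775 to 34221772) overlaps the start of that of Apc (34220297) and which was not called, was at 0.173, 0, 0.586 and 0.0241 FPKM in the β-cat cOEs and 1.29, 1.27, 1.29 and 0.661 FPKM in the APC/β-cat cKOs (adjusted p = 0.139 by limma). Pcdhb6 showed a spread like that of Pcdhga11, with control replicate 1 at 3.78 FPKM and the other controls at 0.581 to 0.807 FPKM, beside 0.620 to 1.18 FPKM in the β-cat cOEs and 1.32 to 2.71 FPKM in the APC/β-cat cKOs.

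The same control library stood with the APC lines in called genes on other chromosomes. Control replicate 1 was within or past the APC/β-cat cKO range in 6 of the 32 called genes, replicates 2 and 4 in 3 each and replicate 3 in 1. It is also 1 of the 2 female libraries, and the labels do not say which line its litter came from. Whether sex or litter bears on its values was not tested.

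Cwc22, a splicing factor gene, had the second largest difference among the genes higher in the β-cat cOEs. It was at 158, 58.5, 158 and 73.7 FPKM in the β-cat cOEs and 6.75, 5.51, 8.30 and 7.43 FPKM in the APC/β-cat cKOs. The APC cKOs were as low, at 5.85 to 6.82 FPKM, and so was control replicate 1 at 6.20 FPKM, while controls 2 to 4 held 75.3, 80.1 and 119 FPKM. No library of the 16 lay between 8.30 and 58.5 FPKM. The difference was 3.86 (SE 0.65, adjusted p = 0.0189 by limma). Near-identical copies of this gene exist in the mouse, so its fragments may not all come from 1 locus.

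Il1f9, which encodes the cytokine IL-36γ, and Tuba1c, an α-tubulin gene, followed that order. Il1f9 was at 7.25, 2.67, 7.84 and 4.05 FPKM in the β-cat cOEs, 0.569, 0.437, 1.19 and 0.660 FPKM in the APC/β-cat cKOs and 0.816 to 1.24 FPKM in the APC cKOs. Tuba1c was at 2.84, 3.92, 3.70 and 3.26 FPKM, 0.300, 0.468, 0.317 and 0.403 FPKM, and 0.247 to 0.470 FPKM. In control replicate 1 they stood at 0.937 and 0.420 FPKM, whereas the other controls held 4.34 to 5.67 and 2.80 to 3.30 FPKM. Across the β-cat cOEs, Il1f9 and Cwc22, both on chromosome 2 but far apart, were high in replicates 1 and 3 and lower in replicates 2 and 4. Without control replicate 1 both genes were still called, as was every one of the 32, and the count of calls rose to 54.

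Parvg, Gm6277 and 4930570G19Rik were further called genes with low values in the APC cKOs. Parvg, which encodes γ-parvin, a link between integrins and actin, was at 4.34, 4.31, 4.19 and 4.34 FPKM in the β-cat cOEs and 2.27, 2.62, 2.24 and 2.25 FPKM in the APC/β-cat cKOs. The APC cKOs ran from 2.17 to 2.79 FPKM and the controls from 2.41 to 5.19 FPKM, with replicate 1 the lowest. Gm6277, a long noncoding RNA on chromosome 18, was at 2.49, 2.45, 2.19 and 2.69 FPKM against 0.839, 0.754, 0.900 and 0.734 FPKM, with the APC cKOs at 0.373 to 0.880 FPKM. For 4930570G19Rik the β-cat cOEs spanned 5.10 to 9.82 FPKM, the APC/β-cat cKOs 3.49 to 4.07 FPKM and the APC cKOs 3.70 to 5.04 FPKM.

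The APC cKOs and controls share no library with the pair, so their level differences give a separate view of APC loss with Ctnnb1 intact. Their p-values do not, since limma took the spread of each gene from all genotypes together. The standard error of a gene was therefore the same in both contrasts. A change in the APC cKOs from the controls had the direction of APC/β-cat cKO minus β-cat cOE in 22 of the 32 called genes (68.8%), where 55.4% of all tested genes had it. An unadjusted p under 0.05 was found in that contrast for 12 of the 32, against 10% of all tested genes, and 11 of the 12 went in that direction. Picking called genes favours a small spread, and so a small p or no overlap in this contrast too. The shares by p and by overlap are therefore a description. Apc, which is deleted by design in both contrasts, is counted among the 22, the 12 and the 11. Apc and Gm6277 were called there too, among 6 genes in all (0.0429%). Gm6277 lies on the chromosome of Apc, 22381 kb from it, and the APC cKOs and APC/β-cat cKOs are both APC fl/fl. In Gm6277 a difference carried by the floxed chromosome and one made by APC loss cannot be told apart. For Apc the APC cKO difference was -1.95 (SE 0.20) and for Gm6277 -1.74, and the groups did not overlap in these 2 genes, Sord and 3000002C10Rik, against 5.47% of all tested genes. Of the genes near Ctnnb1, the APC cKO difference was 0.01 for 2010315B03Rik, -0.06 for Epm2aip1, 0.67 for 3000002C10Rik and -0.15 for Sacm1l. Wwox gave -0.14 and Gabra2 0.03, both within the spread of the libraries (unadjusted p = 0.081 and 0.75 by limma).

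**Figure D4:**
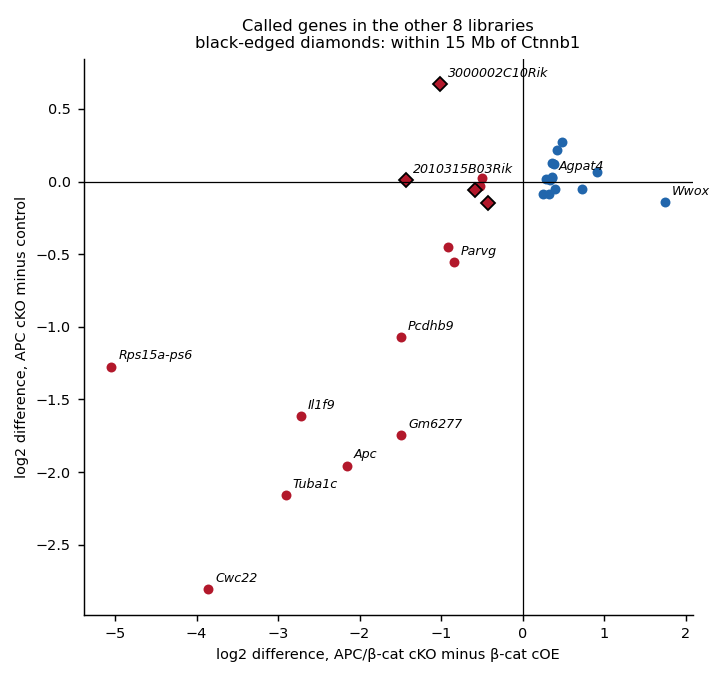
Log2 difference of APC cKO minus control (vertical axis) against APC/β-cat cKO minus β-cat cOE (horizontal axis) for 29 called genes, each axis from 8 libraries that the other does not use; red genes are higher and blue genes lower in the β-cat cOEs, and black edges mark genes within 15 Mb of Ctnnb1. Cwc22, Tuba1c, Apc, Gm6277, Il1f9, Rps15a-ps6 and Pcdhb9 are low on both axes, whereas most blue genes and most genes near Ctnnb1 lie nearer to 0 on the vertical axis. The low vertical value of Rps15a-ps6 comes from APC cKO replicate 4 (0.191 FPKM), since the other APC cKOs held 4.71 to 14.1 FPKM. Ccdc75 at 0.27 and Sord at 0.21 are the highest blue genes, and of the genes drawn near Ctnnb1 3000002C10Rik is at 0.67 and Sacm1l at -0.15.

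In 2 called genes 1 line was at or near 0. Rps15a-ps6, a pseudogene of a ribosomal protein gene whose fragments may come from its parent, was at 12.5, 10.2, 12.2 and 13.7 FPKM in the β-cat cOEs and 0.289, 0.233, 0.145 and 0.485 FPKM in the APC/β-cat cKOs. The controls (5.57 to 11.4 FPKM) were all high, and of the APC cKOs 3 were high and replicate 4 was at 0.191 FPKM. H2-T9, a nonclassical MHC class I gene of a family with close copies, was at no more than 0.000191 FPKM in any β-cat cOE library and at 1.87, 6.42, 4.28 and 2.47 FPKM in the APC/β-cat cKOs. Outside the pair the highest values were 2.64 FPKM in APC cKO replicate 3 and 0.263 FPKM in control replicate 3. No fold is given for H2-T9, since its fitted difference depends on the constant added before the log.

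Of the 15 genes lower in the β-cat cOEs, 11 changed by less than 1.5-fold. Cox6b1, a subunit of cytochrome c oxidase, was at 685, 695, 677 and 717 FPKM against 796, 820, 809 and 880 FPKM, a difference of -0.25 (SE 0.05, adjusted p = 0.0362 by limma). Mrpl41, of the mitochondrial ribosome, was at 13.7, 12.3, 15.1 and 13.95 FPKM against 17.6, 17.1, 18.3 and 17.6 FPKM. Kcnab2, the β2 subunit of voltage-gated potassium channels, was at 95.1, 103, 106 and 94.7 FPKM against 137, 130, 124 and 133 FPKM. All 3 were lower in the β-cat cOEs by less than 1.5-fold. In Mrpl41 the controls (13.4 to 14.8 FPKM) were at the β-cat cOE level, whereas in Kcnab2 controls 1, 2 and 4 (125 to 135 FPKM) were at the APC/β-cat cKO level.

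Sord, sorbitol dehydrogenase, was at 7.11, 8.19, 8.28 and 8.54 FPKM against 11.1, 10.7, 9.90 and 11.4 FPKM, and Mgat5b, a brain N-acetylglucosaminyltransferase, at 16.3, 16.4, 19.02 and 18.6 FPKM against 22.7, 21.7, 23.6 and 23.4 FPKM. Tcap, known as a titin-binding protein of muscle, was at 6.19, 5.69, 8.32 and 6.77 FPKM against 12.04, 10.5, 10.3 and 11.7 FPKM. The controls held 5.94 to 8.43 FPKM of Tcap, within or near the β-cat cOE range. The cilia-linked gene 2010015L04Rik (Cfap74) was at 4.66, 4.90, 5.64 and 5.47 FPKM against 9.31, 9.17, 9.51 and 11.2 FPKM, with 3 of the 4 controls at 8.60 to 10.1 FPKM and replicate 3 at 4.92 FPKM. The remaining 4 lower genes, Ccdc75, Kctd2, Tmem141 and Rnf208, had differences of -0.48 to -0.32. Mrpl41, Rnf208 and Tmem141 lie within 645 kb of each other on chromosome 2. Il1f9, which had the opposite sign, lies 779 kb from Mrpl41.

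Just short of the threshold were Cox7a2l, which acts in respiratory supercomplexes (154 against 183 FPKM, adjusted p = 0.0568), Coq7 of ubiquinone synthesis (26.1 against 42.4 FPKM, adjusted p = 0.0679) and Pldn, of lysosome-related organelle biogenesis (15.9 against 11.8 FPKM, adjusted p = 0.057, all by limma). Lin37, a subunit of the DREAM complex of cell cycle genes, was at 16.4 ± 0.87 FPKM (SD, n = 4) against 20.8 ± 1.3 FPKM. Acad11, of the acyl-CoA dehydrogenase family, was at 8.30 ± 0.39 against 6.39 ± 0.38 FPKM, and Rer1, which returns proteins from the Golgi to the endoplasmic reticulum, at 40.9 ± 1.6 against 50.4 ± 4.8 FPKM. Tmc7, a transmembrane channel-like gene, was at 1.87 ± 0.069 against 3.62 ± 0.14 FPKM, and Rint1, which acts in vesicle transport, at 4.26 ± 0.42 against 6.77 ± 0.44 FPKM. The long noncoding RNA F630042J09Rik was low in both lines, at 0.451, 1.36, 0.811 and 0.985 FPKM in the β-cat cOEs and 0.314, 0.106, 0.319 and 0.0802 FPKM in the APC/β-cat cKOs, with the APC cKOs at 0.245 to 0.521 FPKM and the controls at 0.697 to 1.30 FPKM (difference 1.74, adjusted p = 0.0668 by limma). Together with Vill these were the 10 uncalled genes of smallest p. In none of the 10 did the ranges of the pair overlap, where 6.3% of all tested genes had no overlap. Picking genes by small p favours this, so it is a description.

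No canonical Wnt target reached a call. Of 33 listed Wnt feedback and target genes 25 were tested and 0 were called (0.229% of all tested genes were), with a median difference of 0.07. At an unadjusted p under 0.05, 1 was higher and 1 lower, against 5.04% and 6.88% of all tested genes. Axin2, the best known readout of the pathway, was at 5.33, 5.75, 5.91 and 6.63 FPKM in the β-cat cOEs and 5.02, 5.25, 5.70 and 4.52 FPKM in the APC/β-cat cKOs. These values overlapped, and the difference of 0.20 had a 95% interval of -0.04 to 0.44 (unadjusted p = 0.096 by limma). In the APC cKOs Axin2 was at 6.03 to 8.40 FPKM. Lef1 and Nkd1 had intervals of -0.29 to 0.75 and -0.55 to 0.32, and differences within them were not detectable here. Tnfrsf19, a receptor gene of the TNF family, was at 20.3 ± 0.84 against 18.3 ± 1.1 FPKM (SD, n = 4).

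Ccnd1, which encodes cyclin D1 and is commonly counted among Wnt targets, had lower values in the β-cat cOEs without being called. It was at 9.85, 11.8, 9.82 and 11.4 FPKM against 17.5, 12.2, 17.7 and 21.9 FPKM in the APC/β-cat cKOs. The groups did not overlap, although APC/β-cat cKO replicate 2 was close to the β-cat cOEs, and the difference was -0.66 (95% interval -1.02 to -0.31, adjusted p = 0.13 by limma).

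The rest of the pathway gave few differences, but its lists are short beside a called share of 0.229% of all tested genes. Of 18 tested genes of the destruction complex and its regulators, 0 were called, with Gsk3b at 29.9 ± 1.6 against 25.4 ± 4.9 FPKM. At an unadjusted p under 0.05, 2 were higher and 1 lower, against 5.04% and 6.88% of all tested genes. Among 20 TCF/LEF factors and cofactors, Pygo1, a partner of β-catenin in transcription, was at 7.42 ± 0.92 against 5.80 ± 1.0 FPKM (adjusted p = 0.236). Wnt ligands (12 tested), receptors (13) and secreted antagonists (8) held 0 calls. At an unadjusted p under 0.05, 1 ligand and 1 antagonist were lower and 1 antagonist higher, against 6.88% and 5.04% of all tested genes. Wnt4 was at 5.28 ± 0.50 against 7.17 ± 1.1 FPKM, and its ranges did not overlap, nor did those of 6.3% of all tested genes. Of 16 tested APC binding partners 0 had an unadjusted p under 0.05, against 11.9% of all tested genes.

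Promoters were searched for the core of the TCF/LEF site. The letters searched, on both strands, were CTTTG followed by 2 bases that are each A or T. RefSeq promoter windows (250 bases before to 50 after a start, GRCm38.p6) were at hand for 21 called genes, of which 2, Agpat4 and Cwc22, held a core (9.52%), against 13.4% of tested genes with a window and 16.9% of all windows. In Agpat4 the core CTTTGTT began 239 bases before the start. Its window is shown because Agpat4 set each line of the pair apart from the rest. It is on the plus strand of GRCm38.p6 at chr17:12119034-12119333, and capitals mark the core.
Agpat4 promoter window: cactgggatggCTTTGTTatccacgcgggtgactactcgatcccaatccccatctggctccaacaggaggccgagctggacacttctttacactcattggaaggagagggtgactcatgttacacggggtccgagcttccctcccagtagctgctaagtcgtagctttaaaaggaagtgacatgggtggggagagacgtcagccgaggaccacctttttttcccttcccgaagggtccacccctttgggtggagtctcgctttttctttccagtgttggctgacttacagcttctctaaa
A match is only a run of letters and was not tested for binding.

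Adhesion genes showed small differences that mostly pointed up. Of 24 tested catenins and classical cadherins 20 had a difference above 0, where 49.6% of all tested genes did, with a median of 0.09. The list held 0 calls (0.229% of all tested genes were called). Its summed level was 448 to 486 FPKM in the β-cat cOEs and 438 to 485 FPKM in the APC/β-cat cKOs, so the lines overlapped. Such a lean is not particular to adhesion: 12 of 18 destruction complex genes and 10 of 13 endothelial markers were above 0 too. At an unadjusted p under 0.05, 4 were higher and 1 lower, against 5.04% and 6.88% of all tested genes. Cdh24, a classical cadherin, was at 2.76, 2.62, 3.15 and 2.70 FPKM against 2.14, 1.64, 2.13 and 2.02 FPKM (difference 0.49, SE 0.12, adjusted p = 0.117 by limma), without overlap. The APC cKOs (2.17 to 2.84 FPKM) and controls (2.29 to 2.83 FPKM) lay above the APC/β-cat cKO range. Cdh10 was at 25.5 ± 0.76 against 22.1 ± 1.3 FPKM.

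Inhibitory synapse genes leaned the same way. Of 23 tested, 19 had a difference above 0, against 49.6% of all tested genes, and the median was 0.10. At an unadjusted p under 0.05, 4 were higher and 1 lower, against 5.04% and 6.88% of all tested genes. Gabra2 was the only call (0.229% of all tested genes were called), and Gad2, which makes GABA, was at 56.2 ± 6.9 against 45.7 ± 3.5 FPKM. Gabrd, the δ subunit of extrasynaptic GABA-A receptors, had the opposite sign at 35.3, 36.4, 39.1 and 35.6 FPKM against 46.5, 44.2, 43.2 and 57.4 FPKM (difference -0.38, SE 0.09, adjusted p = 0.101 by limma). Vip, a neuropeptide of an interneuron class, was at 59.1, 54.7, 58.1 and 56.7 FPKM against 48.9, 42.1, 42.0 and 41.3 FPKM (adjusted p = 0.117), and Sst, of another class, at 292 ± 82 against 408 ± 53 FPKM. Of 36 tested glutamate receptor and postsynaptic scaffold genes 25 had a difference above 0 (49.6% of all tested genes did). At an unadjusted p under 0.05, 3 were higher and 1 lower, against 5.04% and 6.88% of all tested genes. Gria2, an AMPA receptor subunit, was at 144 ± 5.5 against 125 ± 24 FPKM.

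**Figure D5:**
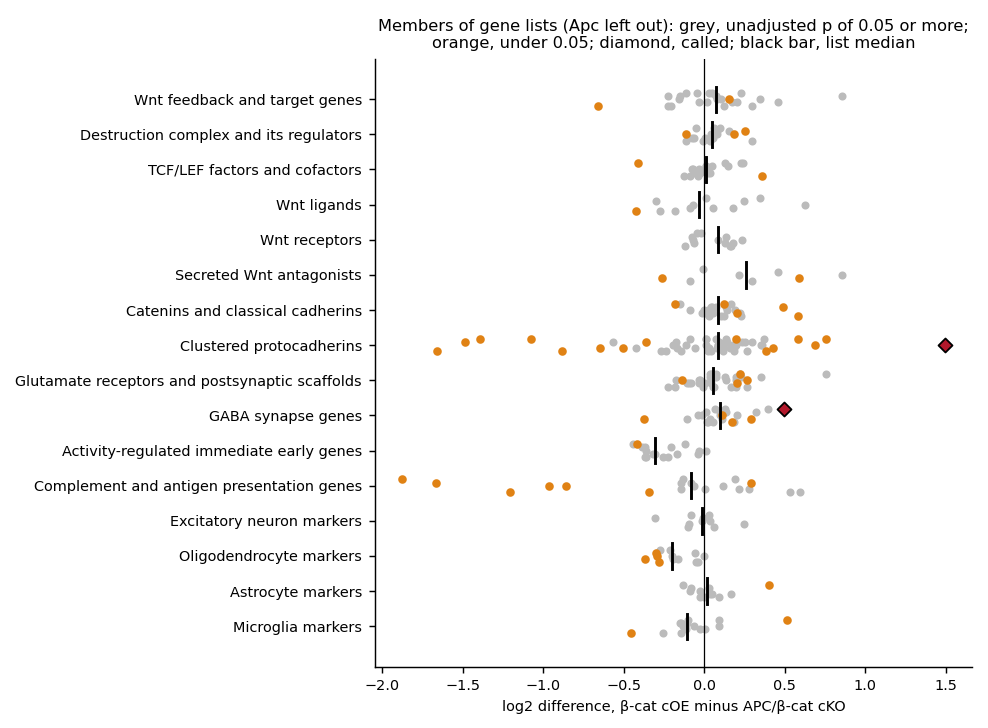
Log2 difference (β-cat cOE minus APC/β-cat cKO) of each tested member of 16 gene lists, Apc left out; grey points have an unadjusted p of 0.05 or more, orange points a lower one, diamonds are called, and black bars are list medians. Gabra2 and Pcdhb9 are the only called members, the protocadherins and the antigen presentation genes are spread widest, and the immediate early genes (median -0.31) and oligodendrocyte markers (median -0.20) lie left of 0.

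Immediate early genes, which neurons switch on with activity, had 16 of 17 differences below 0 and a median of -0.31. Yet 0 were called and 1, Fosb, had an unadjusted p under 0.05. Over all tested genes 0.229% were called, 49.6% of differences were above 0 and 11.9% had such a p. Arc was at 18.6, 21.96, 62.3 and 85.9 FPKM in the β-cat cOEs and 59.6, 68.6, 55.8 and 26.4 FPKM in the APC/β-cat cKOs. Replicates 1 and 2 of the β-cat cOEs were thus low and replicates 3 and 4 high, and the summed level of the list ran from 181 to 448 FPKM in the β-cat cOEs and from 251 to 422 FPKM in the APC/β-cat cKOs.

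Oligodendrocyte markers had differences below 0 in 13 of 13 genes, with a median of -0.20, 0 calls and 4 lower at an unadjusted p under 0.05. Over all tested genes 0.229% were called, 49.6% of differences were above 0 and 6.88% were lower at such a p. Mbp, a myelin protein gene, was at 301, 354, 264 and 335 FPKM in the β-cat cOEs and 364, 389, 356 and 427 FPKM in the APC/β-cat cKOs, without overlap. The sum over the list was 843 to 1096 FPKM in the β-cat cOEs, 1068 to 1210 FPKM in the APC/β-cat cKOs, 832 to 1254 FPKM in the controls and 743 to 881 FPKM in the APC cKOs. The controls covered the ranges of both lines. The medians of the markers of excitatory neurons (-0.01), astrocytes (0.02), endothelial cells (0.03) and oligodendrocyte precursors (-0.04) were nearer to 0, that of microglia was -0.11 with 11 of 15 differences below 0, and that of mural and meningeal cells was 0.19 with 11 of 14 above. The part of myelin content in any other result was not tested.

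Several antigen presentation genes had higher values in the APC/β-cat cKOs without being called. Of 19 tested complement and antigen presentation genes 0 were called (0.229% of all tested genes were). At an unadjusted p under 0.05, 6 were lower and 1 higher in the β-cat cOEs, against 6.88% and 5.04% of all tested genes. B2m, the light chain of MHC class I, was at 98.5, 104, 86.6 and 107 FPKM against 117, 141, 116 and 127 FPKM, without overlap (adjusted p = 0.134 by limma). Of the MHC class II genes, H2-Aa was at 0.642, 1.16, 0.295 and 0.340 FPKM against 1.29, 4.83, 3.30 and 1.18 FPKM, and Cd74, their invariant chain, at 2.66, 3.74, 2.32 and 1.62 FPKM against 3.59, 6.47, 4.85 and 5.26 FPKM. APC/β-cat cKO replicate 2 was the highest of the series in all 3 genes, and in H2-K1 it held 18.7 FPKM where replicate 4 held 1.36 FPKM. Interferon response genes gave 0 of 12 at an unadjusted p under 0.05, against 11.9% of all tested genes. Of the microglia markers, Itgam was at 4.26 ± 0.27 against 5.91 ± 0.77 FPKM and Cd14 at 2.21 ± 0.19 against 1.53 ± 0.21 FPKM.

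The autism-linked genes that the study named were chosen on these libraries, so their direction is not independent evidence. Of 10, 9 were tested, 0 were called, 0 had an unadjusted p under 0.05, and 7 had a difference above 0, with a median of 0.18. Over all tested genes 0.229% were called, 11.9% had such a p and 49.6% had a difference above 0. With 9 genes and these shares, the counts of 0 say little about the list. Pvalb, a calcium buffer of fast-spiking interneurons, was at 37.1 to 61.7 FPKM in the β-cat cOEs and 50.7 to 66.1 FPKM in the APC/β-cat cKOs (difference -0.38, SE 0.19, adjusted p = 0.433 by limma, exact two-sided permutation p = 0.0857). The median difference of the 13 tested parvalbumin interneuron markers, Pvalb included, was 0.01. Nrp2, a semaphorin receptor, was at 8.005 ± 1.6 against 6.56 ± 0.81 FPKM and Kirrel3, a synaptic adhesion gene, at 16.2 ± 1.5 against 14.3 ± 1.1 FPKM. Dcx, a microtubule protein of young neurons, was at 6.59 against 4.92 FPKM on average (adjusted p = 0.64), Pax6 at 6.58 against 5.06 FPKM and Camk4 at 19.2 against 19.97 FPKM.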

How the data were processed

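RNA from PFC was sequenced in 16 libraries, 4 per genotype, grouped by the genotype label. The kit was a stranded polyA kit. Per the submitters' processing notes, reads were demultiplexed with bcl2fastq, mapped with TopHat2 2.0.10 to mm10 and quantified with Cuffdiff 2.1.1. The deposited table gives log2 values, taken here as log2(FPKM + 1) because they then add up to 452830 to 496015 FPKM per library, and they were turned back to FPKM. Base and offset are not stated in the sources used here. The table holds no fragment counts, so no counting error could be given. Of 23284 genes, 3841 were at 0 in all libraries and 25 symbols had become dates.

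limma 3.58.1 in R 4.3.3 (lmFit, contrasts.fit, eBayes with a trend) was run on log2(FPKM + 0.1) for the 13978 genes averaging 0.5 FPKM or more. All 4 genotypes shared 1 estimate of the spread (12 residual degrees of freedom). The test was checked on simulated data. Positions came from RefSeq (13851 tested and 31 called genes matched) and exon 3 from GENCODE. Figures were drawn with matplotlib 3.10.9. The gene lists, the windows and the compared lines were chosen with earlier results of these data known. Some called genes are counted but not reported here. Genes named are the targeted and the other called genes and the 10 uncalled genes of smallest p, with a choice among the genes of smallest p near the targeted genes and, per list, the called members, the 3 of smallest p and the 2 of highest level. Arc, Mbp, Axin2, Lef1, Nkd1, Dcx, Pax6 and others outside that rule were named after their values were seen. Alternatives changed the pseudocount, filter, scaling, trend, weights, covariates, replicate block, threshold, window and libraries.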

Additional observations from a re-analysis of the deposited data

Results flagged for a closer look

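In 132 groups of 4 libraries, 33 genes in 4 genotypes, the lowest or highest library of 5 groups lay farther from the rest than Dixon's 95% limit for 4 values allows, and chance would give about 6.6. For 2010315B03Rik in the β-cat cOEs, replicate 3 was low at 6.13 FPKM beside 7.25 to 7.46 FPKM (0.843 of the range). For H2-T9 in the APC cKOs, replicate 3 was high at 2.64 FPKM while the next library held 0.000652 FPKM (0.9998). For Mgat5b in the controls, replicate 1 was high at 20.7 FPKM beside 17.4 to 17.8 FPKM (0.879). For 2010015L04Rik in the APC/β-cat cKOs, replicate 4 was high at 11.2 FPKM beside 9.17 to 9.51 FPKM (0.834). For Parvg in the APC/β-cat cKOs, replicate 2 was high at 2.62 FPKM beside 2.24 to 2.27 FPKM (0.908). In 2010315B03Rik, 2010015L04Rik and Parvg, where the outlying library belongs to the pair, it stayed outside the range of the other line. This is no check of the outliers, since the lines did not overlap in any of the 32 called genes.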

How the results depend on the processing

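Of 957 repeats of single called genes other than Apc, 709 stayed called, 248 fell short and 0 changed direction. An adjusted p under 0.1 is among these repeats and keeps every call by construction. The threshold repeats reuse the main fit, so their direction could not change. With Apc counted, 8 genes, among them Wwox, 2010315B03Rik, Apc, Sacm1l, Gnl3l and Tuba1c, were called under every alternative that tested them. The 32 calls became 60 with array weights (32 higher, 28 lower), 22 without a trend (7 lower), 9 at an adjusted p under 0.01 (7 higher, 2 lower) and 58 under 0.1 (26 higher, 32 lower). They became 50 without the 2 female libraries (26 lower), an alternative chosen after seeing the data. Leaving out each library in turn gave 9 (without β-cat cOE replicate 1) to 54 calls (without control replicate 1), 7 to 24 higher and 2 to 30 lower. The replicate numbers did not pair the libraries (correlations of deviations from -0.094 to 0.069), and a replicate block left 19 calls, 7 of them lower. That block followed the replicate numbers used here. In the column order of the deposited values APC cKO replicates 3 and 4 trade places, and a block by that order was not tried. The 6 calls of APC cKO against control became 13 with array weights, 26 without the females, 3 at 0.01, and 3 to 43 with a library left out, the highest without control replicate 1. The 6 calls around Ctnnb1 became 3 within 5 Mb. The 1 call around Apc became 2 with only the 8 libraries, 3 with array weights, 0 with the replicate block, 6 without the females, 0 at 0.01, 3 at 0.1, 2 within 30 Mb, and 0 to 6 with a library left out. The 2 called list members other than Apc became 4 with only the 8 libraries, 4 with array weights, 1 with the block, 7 without the females, 0 at 0.01, 4 at 0.1, and 0 to 8 with a library left out. The causes were not tested.

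The main limits are 4 libraries per line, the unknown depth, the whole-gene values that hide the deleted exons, and the flanking chromosome of each floxed allele, which goes with the genotype. Controls pooled from several lines add spread that all comparisons share. Low genes are understated by the added constant, and similar genes (Cwc22, Tuba1c, H2-T9, Pcdhb9, Rps15a-ps6) are uncertain where fragments could be split between copies. At a mean of at least 2 FPKM no choroid plexus marker was left, so its median has no value there.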
